A study of Mus musculus with 14 samples.

Results

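9 genes of the renin-angiotensin system were followed in the aortic valves of mice infused with angiotensin II (AngII). They were the precursor gene Agt, the peptidase genes Ace, Enpep and Lnpep, the receptor genes Agtr1a, Agtr1b, Agtr2 and Mas1, and Agtrap, which encodes a protein bound to the AngII type 1 receptor. The members were chosen by name, as the listed genes found in a count table of 56941 Ensembl genes, and all 9 were found in it. 7 of them averaged 10 or more counts per library and were tested among 19145 genes in all, and Agtr1b and Agtr2 did not reach that level.

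The study asked whether blocking the serotonin receptor HTR2B changes the response of the valve to AngII. RNA was read in bulk from the aortic valve leaflets of 14 C57BL/6J wild-type male mice, 1 library per mouse, all 8 weeks old at the start and all fed the Breslow Western Diet. 4 untreated mice formed the Ctrl group and 2 mice given LY272015 at 3 mg/kg, an HTR2B antagonist, formed the LY group. 4 mice received AngII at 1000 ng/kg/min from osmotic pumps for 28 days (AngII), and 4 received the same infusion with LY272015 at 3 mg/kg (AngII+LY). The design text places tissue collection of both infused groups 48 h after the pumps came out, whereas the methods speak of a subset of mice. The sources also differ on how often LY272015 was given, and some labels give it another compound number. All animals were male and on a high-fat diet, so the comparisons describe AngII on that background and not a lean or female valve.

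In the classical pathway renin cuts angiotensinogen, the product of Agt, to angiotensin I, and angiotensin-converting enzyme, the product of Ace, trims that peptide to AngII. AngII acts on type 1 receptors (Agtr1a and its near copy Agtr1b in rodents) and type 2 receptors (Agtr2), and aminopeptidase A, from Enpep, shortens it further. Shorter peptides bind other targets, among them the receptor Mas1 for angiotensin 1-7 and the aminopeptidase encoded by Lnpep for angiotensin IV. The infused AngII is a peptide and leaves no reads of its own, so the counts show the transcripts of the valve and not the amount of peptide.

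Sequences from the GRCm39 genome show what the reads must tell apart. The codons of angiotensin I lie in a coding exon of Agt at chr8:125291189-125291218 on the minus strand, and the capitals mark the 24 bases that encode AngII itself.
Agt: GACCGCGTATACATCCACCCCTTCcatctc
These codons begin at residue 30 of a precursor of 482 residues. The second set shows why both type 1 receptor genes need care. It gives the first 60 coding bases of each gene, at chr13:30564937-30564996 on the plus strand for Agtr1a and at chr3:20370545-20370604 on the minus strand for Agtr1b, with capitals at the 7 bases that differ.
Agtr1a: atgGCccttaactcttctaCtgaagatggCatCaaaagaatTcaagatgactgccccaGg
Agtr1b: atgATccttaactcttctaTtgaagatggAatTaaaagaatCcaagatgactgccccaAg
Over the 1077 coding bases 99 differ, an identity of 90.8%, and 33 of the 1028 stretches of 50 bases (3.2%) are the same in both genes. Reads from those stretches could not be placed on 1 gene by sequence alone.

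The libraries held between 20990655 and 73128220 counts, the smallest being AngII 4. Values below are counts divided by the TMM-scaled library size (normalized counts), and levels of different genes are compared per kb of exon. The mitochondrial share of the counts ranged from 4.0% to 25.5%, and it exceeded 20% in 3 libraries, AngII 3 (24.7%), AngII 4 (25.5%) and AngII+LY 1 (20.2%). In the comparison of AngII with Ctrl the fold changes of all genes also varied with GC content. In AngII+LY against AngII they varied the other way, with a median log2 fold change of −0.739 near 37.5% GC and 0.405 near 56.5%. Values after a correction for GC content, and without those 3 libraries, therefore stand beside many of the members' results and the calls. Not every call below is given in both forms, and a call without such a value is not shown to hold there. Leaving out the 3 libraries keeps only AngII 1 and AngII 2 in the AngII group. In AngII against Ctrl, DESeq2 then called 0.836% of all genes, against 13.9% with all libraries. Whether a call was lost through fewer mice or through library quality cannot be told apart. Markers of valve interstitial cells and fibroblasts were abundant in every library, at 0.505% to 1.96% of the counts, as were cardiomyocyte markers, at 0.776% to 4.27%. The leaflet samples therefore carried heart muscle RNA. In bulk samples, fewer cells of a type and less RNA per cell cannot be told apart.

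In untreated valves the members spanned a wide range. Per kb of exon Ace was the most abundant, at 1150 ± 254 normalized counts (SD, n = 4), a level above that of 90.7% of the tested genes. Agtrap followed at 504 ± 53.3 and Lnpep at 185 ± 36, and the values of these 3 genes did not overlap between the Ctrl mice. Enpep (76.1 ± 25), Agtr1a (65.1 ± 22.8) and Agt (34.5 ± 44.9) came next, and neighbours among them overlapped. Mas1 (1.83 ± 1.64) and Agtr2 (0.657 ± 1.18) were near 0 and overlapped each other, and Agtr1b had no count. The converting enzyme transcript thus lay far above that of its substrate and of every receptor.

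**Figure D1:**
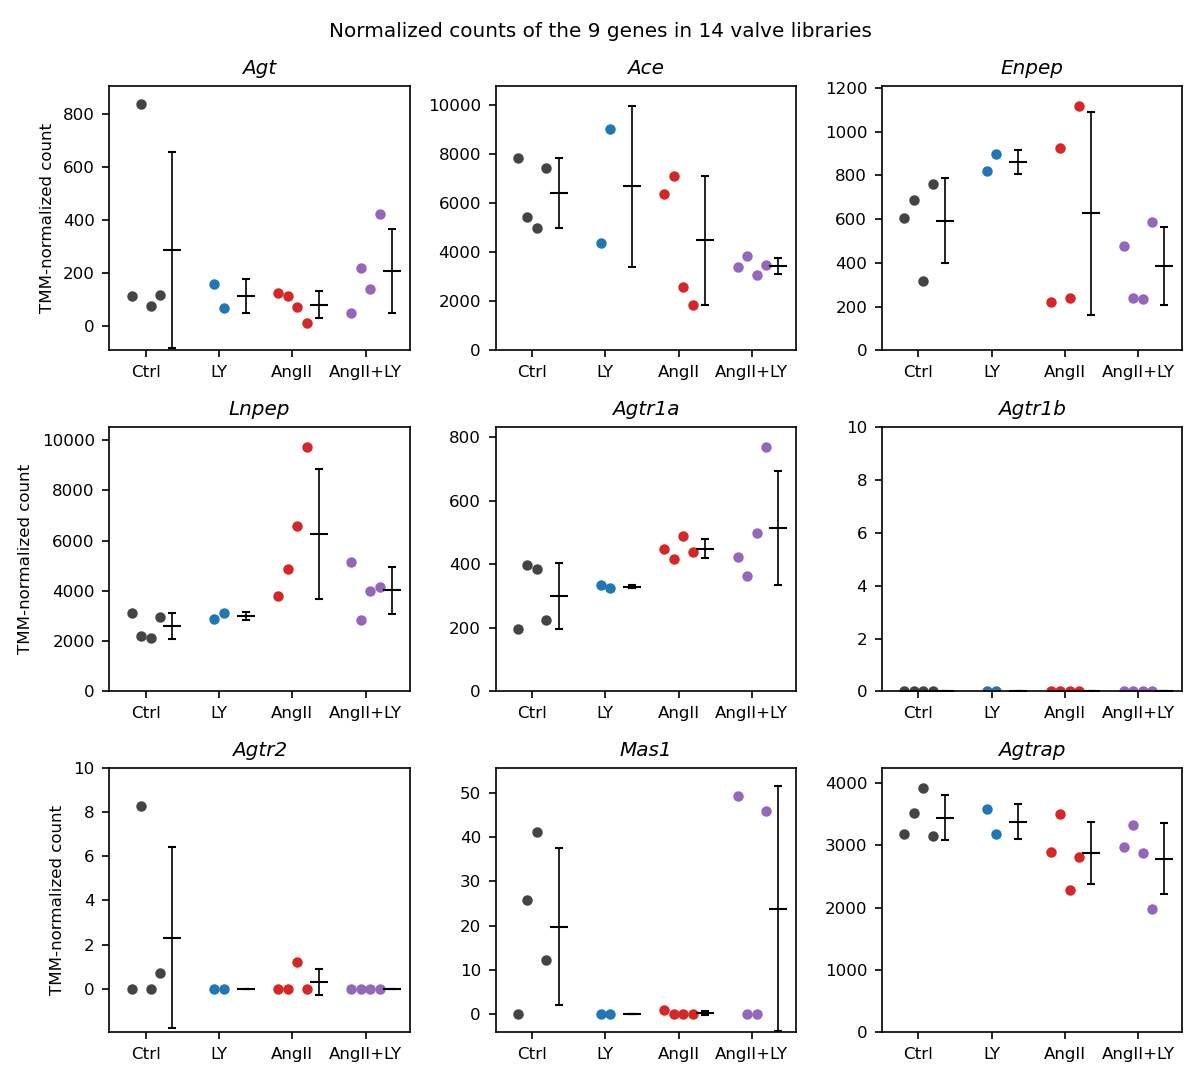
TMM-normalized counts (y axis, 1 scale per gene) of the 9 genes in the 4 groups (x axis). Points are mice and bars the mean ± SD of 4 mice (2 for LY). Lnpep lay higher in all 4 AngII mice than in any Ctrl mouse, Ace was split among the AngII mice, and Agt was high in 1 Ctrl mouse.

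AngII was first compared with Ctrl. Of the members, Lnpep showed the largest difference above Ctrl with separate groups, and the Agtr1a counts of the AngII mice all exceeded those of the Ctrl mice by a smaller margin. Ace, Enpep, Agt and Agtrap overlapped between the groups. A gene was called when its Benjamini-Hochberg adjusted p was below 0.05 and its log2 fold change exceeded 0.5 in size. By edgeR's quasi-likelihood test 0 of the 7 members were called, and 0.0% of all tested genes. By DESeq2 the rule called 1 member, Lnpep, where it called 13.9% of all tested genes. At an unadjusted p under 0.05, edgeR marked 2 members, Lnpep and Mas1, against 25.2% of all genes. Mas1 passed the filter only through its counts in Ctrl and AngII+LY, so its mark here is no independent evidence of a difference.

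Agt (chr8:125279301-125296716, minus strand) encodes angiotensinogen. Its normalized counts were 113, 841, 72.4 and 115 in the Ctrl mice, 157 and 66.5 in the LY mice, 123, 111, 72.1 and 9.9 in the AngII mice, and 49.4, 218, 138 and 424 in the AngII+LY mice. Ctrl 2 held several times the count of the other Ctrl mice, and all 4 groups overlapped. The estimated log2 fold change in AngII was −1.83 ± 0.89 (SE; edgeR adjusted p = 0.215), −1.48 ± 0.84 with GC correction and −1.29 ± 0.99 without the 3 libraries of high mitochondrial share, and it was −0.32 without Ctrl 2. AngII+LY against AngII gave 1.37 ± 0.88 (edgeR adjusted p = 0.381). Neither tool called either difference. In AngII against Ctrl the unadjusted p was 0.0591 by edgeR and 0.0287 by DESeq2.

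The 2 libraries highest in Agt, Ctrl 2 and AngII+LY 4, were also those with the most heart muscle signal in their groups. The summed normalized counts of the 10 cardiomyocyte markers were 1690029 in Ctrl 2 against 389209 to 1064435 in the other Ctrl mice, and 2578241 in AngII+LY 4 against 986813 to 1887721. LY 1 was the higher LY mouse in both. Other mice did not follow this order. AngII+LY 2 came next in Agt in its group but had the lowest sum, 986813. In AngII, AngII 1 was highest in Agt, while AngII 3 had the highest sum, 991377. All 10 markers had counts in every group, and the part of heart muscle in the Agt level was not tested. A further limit concerns the gene model. Agt shares 2450 of its 8257 exon bases (29.7%) with Cog2, a Golgi complex gene on the opposite strand that held 1210 to 2220 normalized counts. The strand setting of the counting is not given in the sources used here, so reads from the shared bases cannot be assigned with certainty.

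Ace (chr11:105858469-105880790, plus strand) encodes angiotensin-converting enzyme, an endothelial membrane peptidase. Its normalized counts were 7810, 5421, 4981 and 7434 in Ctrl and 4359 and 9001 in LY. In AngII they were 6375, 7092, 2569 and 1856, and in AngII+LY 3408, 3832, 3061 and 3469. The AngII mice fell apart into a pair at the Ctrl level and a pair below every other library, while the AngII+LY mice lay close together and below all Ctrl mice.

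The Ace estimate for AngII against Ctrl was −0.52 ± 0.37 (edgeR adjusted p = 0.404). The low pair was AngII 3 and AngII 4, the AngII libraries with over 20% mitochondrial counts, and without the 3 such libraries the estimate was 0.07 ± 0.28. That fit keeps only the AngII pair already at the Ctrl level, so its estimate was set by that choice. With GC correction it was −0.05 ± 0.30, and genes within 1 percentage point of the GC content of Ace (56.6%) had a median of −0.52. The part of RNA quality was not tested.

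AngII+LY against Ctrl gave −0.90 ± 0.37 for Ace (edgeR unadjusted p = 0.0303, adjusted p = 0.397). The groups did not overlap, an arrangement found in 8.16% of tested genes, and the exact permutation p was 0.0286, the smallest that 4 against 4 mice allow. Without the 3 libraries the estimate was −0.88 ± 0.26, and DESeq2 called it there (adjusted p = 0.0374, 3.88% of all genes called) while edgeR did not (adjusted p = 0.214). With GC correction it was −0.63 ± 0.30, and neither tool called it (edgeR adjusted p = 0.347, DESeq2 adjusted p = 0.223). Over all alternatives the adjusted p of Ace in this comparison ran from 0.142 to 0.684 by edgeR and from 0.0374 to 0.549 by DESeq2. For AngII+LY against AngII the Ace estimate was −0.38 ± 0.37 (edgeR adjusted p = 0.586), and −0.95 ± 0.30 (adjusted p = 0.199) without those libraries. With GC correction it was −0.59 ± 0.30 (edgeR adjusted p = 0.374). Ace is known as an endothelial gene, and the endothelial markers, all 10 counted, overlapped between the groups. Their sums lay between 96610 and 194180 in Ctrl, between 125359 and 180861 in AngII and between 95786 and 206448 in AngII+LY. The lowest Ctrl sum was in Ctrl 1, the highest in Ace, and the highest sum in Ctrl 3, the lowest in Ace. The LY mice were also in opposite order (160360 in LY 1 and 140655 in LY 2). In AngII the pair with more Ace had the higher sums, 180861 and 171209. In AngII+LY, AngII+LY 2 was highest in both, but AngII+LY 4, next in Ace, had the lowest sum, 95786. AngII+LY 3, the lowest in Ace, had a higher sum (146582) than AngII+LY 1 (133818). The valve interstitial and fibroblast markers were lower in estimate for 10 of 10 genes in AngII+LY against Ctrl. Their median log2 fold change was −0.86 beside −0.02 over all tested genes, and DESeq2 called 2 of them, beside 1.79% of all genes. These 10 markers summed to 305018 to 539076 normalized counts in AngII+LY and 496385 to 931744 in Ctrl. The 2 Ctrl mice with the higher sums also had the higher Ace counts. The part of tissue content in the Ace level was not tested. Ace shares 952 exon bases (17.0%) with Gm11651 on the opposite strand, a gene with 0 counts in every library.

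Enpep (chr3:129062824-129126369, minus strand) encodes aminopeptidase A, which removes the first residue of AngII. Its normalized counts were 607, 686, 317 and 761 in Ctrl, 821 and 898 in LY, 220, 925, 242 and 1118 in AngII, and 479, 239, 235 and 588 in AngII+LY. The AngII mice covered the widest range, with values both below and above all Ctrl mice. Their mitochondrial shares were 9.83% in AngII 2 and 25.5% in AngII 4, the high pair, and 11.0% in AngII 1 and 24.7% in AngII 3, the low pair. The part of RNA quality in the Enpep level was not tested. The estimates were 0.07 ± 0.51 in AngII against Ctrl (edgeR adjusted p = 0.947) and −0.70 ± 0.51 in AngII+LY against AngII (adjusted p = 0.455). The first was −0.13 ± 0.47 with GC correction and −0.05 ± 0.58 without the 3 libraries of high mitochondrial share. Both LY mice lay above the 4 Ctrl mice, as one group lay apart from the other in 12.0% of tested genes in either direction, and the estimate was 0.54 ± 0.61 (edgeR adjusted p = 1.0).

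Lnpep (chr17:17741672-17845312, minus strand) encodes a membrane aminopeptidase that binds angiotensin IV and also cleaves oxytocin and vasopressin. Its normalized counts were 3124, 2222, 2127 and 2971 in Ctrl and 2877 and 3121 in LY. In AngII they were 3806, 4868, 6574 and 9735, all above every Ctrl and LY value, as were 3 of the 4 AngII+LY values, 5135, 3977 and 4144, the remaining one being 2855. In AngII against Ctrl the groups did not overlap, as in 15.0% of tested genes.

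Lnpep was 2.39-fold higher in AngII than in Ctrl, a log2 fold change of 1.26 ± 0.27. The edgeR adjusted p was 0.0573, which no gene of that comparison undercut, and the DESeq2 adjusted p was 0.000894. edgeR called the gene when AngII 1 (adjusted p = 0.0251), AngII 2 (0.0478) or Ctrl 4 (0.0358) was left out, and not when any of the other 5 mice was. The lowest estimate, 0.96, came without AngII 4. Over 18 edgeR alternatives its adjusted p ran from 0.0251 to 0.486, and over 11 DESeq2 alternatives from 4.26e-05 to 0.138. DESeq2 called it whichever of the 8 mice was left out. The exact permutation p was 0.0286, the smallest possible here.

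The size of the Lnpep difference depended on the libraries and on GC content. Within AngII the level was highest in AngII 4 and AngII 3, the libraries with the largest mitochondrial share, and in AngII+LY it was highest in AngII+LY 1. Without these 3 libraries the log2 fold change was 0.73 ± 0.22 (edgeR adjusted p = 0.486, DESeq2 adjusted p = 0.138). Lnpep has a GC content of 39.5%, and the 872 genes within 1 percentage point of it had a median log2 fold change of 0.77. After GC correction Lnpep was at 0.62 ± 0.18 (edgeR adjusted p = 0.146), which DESeq2 called (adjusted p = 0.0319) where it called 4.25% of all genes. The correction moved the median of all genes from −0.06 to 0.09, so relative to that median Lnpep was at 1.32 before and at 0.53 after it. The part of RNA quality in the difference was not tested.

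In AngII+LY against AngII the estimate for Lnpep was −0.63 ± 0.27 (edgeR unadjusted p = 0.0338, adjusted p = 0.185, DESeq2 adjusted p = 0.118), and the groups overlapped. It was 0.01 ± 0.18 after GC correction and −0.23 ± 0.24 without the 3 libraries. Without AngII 1, DESeq2 called it (log2 fold change −0.83, adjusted p = 0.029, with a range up to 0.987 over its alternatives). In AngII+LY against Ctrl it was 0.63 ± 0.27 (edgeR adjusted p = 0.407), and 0.63 ± 0.18 with GC correction, which DESeq2 called (adjusted p = 0.0264, 4.83% of all genes called) although its other alternatives reached an adjusted p of up to 0.57. These comparisons share the AngII or Ctrl mice with the first one.

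**Figure D2:**
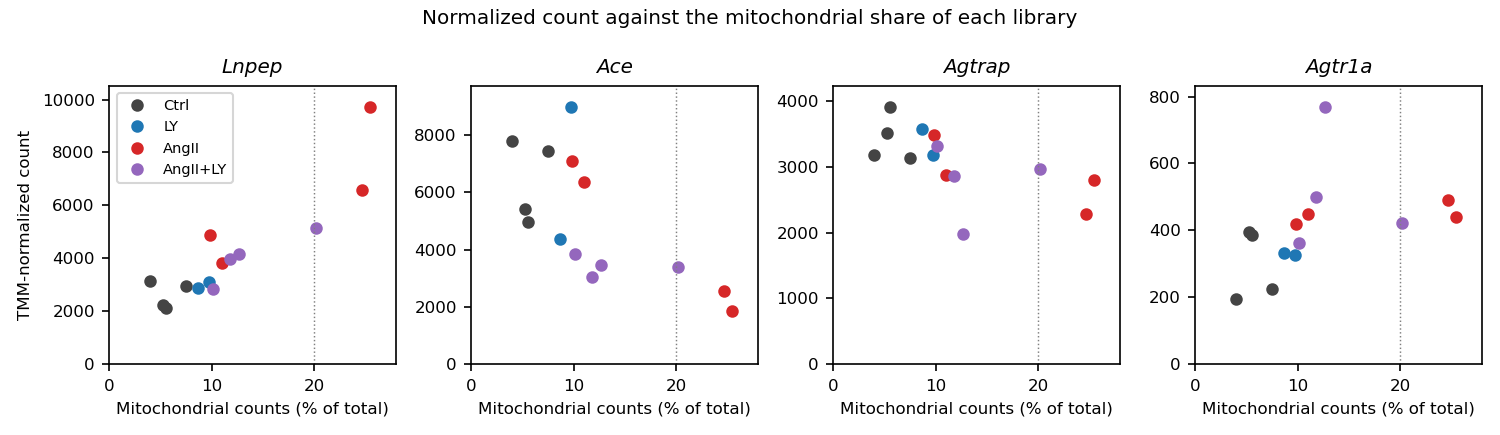
Normalized counts (y axis) of 4 members against the mitochondrial share of each library's counts (x axis, %), 1 point per mouse. The dotted line marks 20%; the 3 libraries beyond it hold the highest Lnpep values and 2 of them the lowest Ace values, while Agtr1a shows its highest value, 770, at 12.7%.

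Agtr1a (chr13:30518942-30566850, plus strand) encodes the main AngII type 1 receptor of rodents, coupled to Gq. Its normalized counts were 195, 397, 385 and 224 in Ctrl, 334 and 326 in LY, 449, 418, 490 and 440 in AngII, and 422, 362, 500 and 770 in AngII+LY. All AngII mice lay above all Ctrl mice, and the AngII values were close together, with an SD of 30.4 against 105.3 in Ctrl. The log2 fold change in AngII was 0.58 ± 0.31 (edgeR adjusted p = 0.252, DESeq2 adjusted p = 0.145), with an exact permutation p of 0.0286. Agtr1a and Lnpep were the 2 members of 7 with separate groups here, beside 15.0% of all tested genes.

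For Agtr1a the estimate did not shrink with GC correction, where it was 0.78 ± 0.30 (edgeR adjusted p = 0.240), or 0.69 above the median of all genes against 0.64 before, and the genes of like GC content had a median of −0.11. Without the 3 libraries of high mitochondrial share it was 0.53 ± 0.38. AngII+LY against Ctrl gave 0.78 ± 0.31 (edgeR unadjusted p = 0.0245, adjusted p = 0.377), and 0.98 ± 0.30 with GC correction, which DESeq2 called (adjusted p = 0.0262, with a range of 0.0262 to 0.486 over its alternatives). That correction moved the median of all genes from −0.02 to 0.17 there. Without the 3 libraries of high mitochondrial share the estimate was 0.88 ± 0.34, which DESeq2 did not call (adjusted p = 0.17). Without AngII+LY 4, the mouse with the highest Agtr1a count, it was 0.51. The 8 smooth muscle markers, from cells that carry this receptor in arteries, summed to between 13510 and 455093 normalized counts in Ctrl, 13535 and 26514 in AngII, and 16287 and 95317 in AngII+LY, and overlapped. The highest smooth muscle sum was in Ctrl 1, the mouse with the lowest Agtr1a count, while AngII+LY 4, the highest in Agtr1a, also had the highest smooth muscle sum of its group. Within each of the 4 groups the mice ranked by Agtr1a exactly as they did by the sum of the 10 cardiomyocyte markers. That sum ran from 389209 in Ctrl 1 to 1690029 in Ctrl 2, from 386498 in AngII 2 to 991377 in AngII 3, and from 986813 in AngII+LY 2 to 2578241 in AngII+LY 4. The part of heart muscle in the Agtr1a level was not tested. AngII+LY against AngII gave 0.19 ± 0.31 (edgeR adjusted p = 0.758).

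Agtr1b (chr3:20368609-20421348, minus strand), the second rodent type 1 receptor gene, had 0 counts in all 14 libraries. A count of 0 allows up to 3 independent counts in a library, a level of 0.041 to 0.143 CPM (counts scaled to the library total). This limit covers counting error only. If both mates of a read pair were counted, the counts are not independent and the limit is higher. Reads that fall on both receptor genes may have been dropped, which the identical stretches above would allow for a small share of the coding sequence.

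Agtr2 (chrX:21350763-21355403, plus strand) encodes the type 2 receptor, known for its expression in fetal tissue. It had 10 counts in Ctrl 2, 1 in Ctrl 4 and 1 in AngII 3, and none in the other 11 libraries. No difference between the groups was detectable at this depth.

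Mas1 (chr17:13054861-13087035, minus strand) encodes the receptor for angiotensin 1-7. It was counted in some mice and absent in others, with 0, 31, 38 and 17 counts in Ctrl, 0 and 0 in LY, 1, 0, 0 and 0 in AngII, and 36, 0, 0 and 48 in AngII+LY. Thus 3 of 4 Ctrl mice and 2 of 4 AngII+LY mice had more than 10 counts, and no LY or AngII mouse did. Its mean count of 12.2 was barely above the filter, so no fold change is given. Only its counts in Ctrl and AngII+LY took it past the filter. Its p-values against AngII or LY are therefore no independent evidence of a difference. By edgeR the adjusted p was 0.131 in AngII against Ctrl and 0.135 in AngII+LY against AngII, and the exact permutation p was 0.143 and 0.429. In LY against Ctrl, Mas1 was the 1 member with an unadjusted p under 0.05 (edgeR adjusted p = 1.0), where 1.39% of genes reached that level.

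Agtrap (chr4:148160185-148172538, minus strand) encodes a protein that binds the tail of the type 1 receptor and promotes its internalization. Its normalized counts were 3179, 3513, 3920 and 3137 in Ctrl, 3576 and 3177 in LY, 2885, 3493, 2278 and 2809 in AngII, and 2966, 3316, 2869 and 1978 in AngII+LY. It was the steadiest of the counted members, with a coefficient of variation of 16.6% over the 14 libraries against 33.5% for Agtr1a and 120% for Agt. The log2 fold change was −0.26 ± 0.18 in AngII against Ctrl (edgeR adjusted p = 0.396), and 0.25 ± 0.20 with GC correction, so its sign depended on that choice, also relative to the median of all genes (−0.2 and 0.16). Without the 3 libraries it was −0.11 ± 0.21. The AngII+LY mice differed from the AngII mice by −0.04 ± 0.18 (adjusted p = 0.922).

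**Figure D3:**
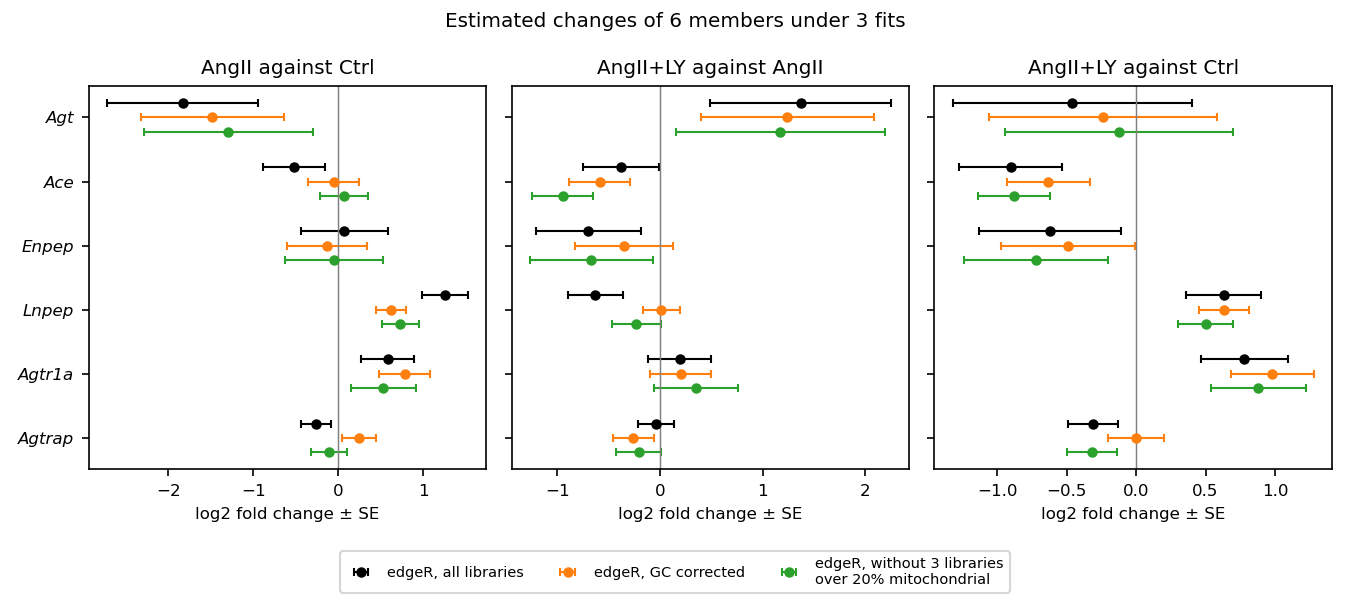
Estimated log2 fold changes ± SE (x axis) of 6 members in 3 comparisons, by edgeR with all libraries, with GC correction and without the 3 libraries over 20% mitochondrial counts. Lnpep in AngII moved from 1.26 to 0.62 with GC correction and to 0.73 without those libraries, while Agtr1a stayed between 0.53 and 0.78.

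Across the tested members, AngII+LY against AngII gave 0 calls by edgeR (0.0% of all genes) and 0 by DESeq2 (10.9% of all genes). Lnpep and Mas1 had an unadjusted p under 0.05 by edgeR, beside 22.5% of all genes, and 0 members had groups that did not overlap, beside 11.1%. AngII+LY against Ctrl gave 0 calls by either tool (0.0% and 1.79% of all genes). There 3 members, Agtr1a, Ace and Lnpep, had an unadjusted p under 0.05, beside 11.0% of all genes. LY against Ctrl gave 0 calls by edgeR and by DESeq2, which called 0.11% of all genes. The interaction term, which sets the effect of LY272015 under AngII against its effect alone, also called 0 members by either tool (0.0% and 1.06% of all genes). Mas1 alone had an unadjusted p under 0.05 there (edgeR adjusted p = 0.295), beside 13.3% of all genes. The limit that the filter sets on Mas1 holds for each of its p-values in this paragraph. With 2 LY mice, a difference between LY and Ctrl cannot reach an exact permutation p below 0.0667.

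**Figure D4:**
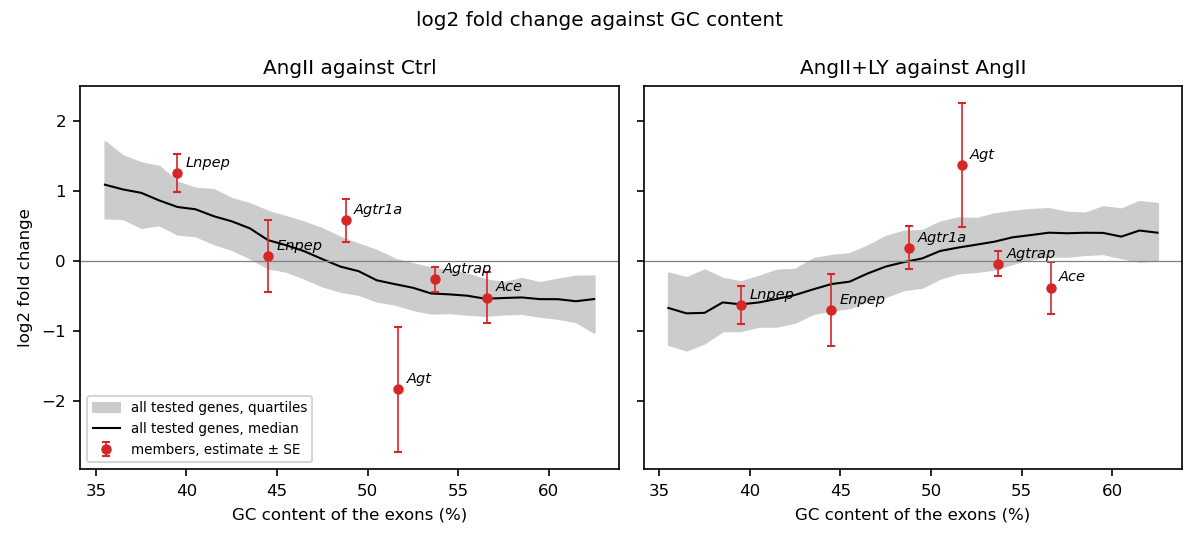
log2 fold change by edgeR (y axis) against the GC content of the exons (x axis, %). The line and band are the median and quartiles of all tested genes in bins of 1 percentage point, and points are 6 members ± SE. In AngII against Ctrl the median went from 0.77 near the GC content of Lnpep to −0.52 near that of Ace; Agt and Agtr1a lay away from the line.

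The genes most like each member over the 14 libraries were sought among 12551 protein-coding genes averaging 100 or more counts, by Pearson's r of log2(normalized count + 1). These values describe shared variation, which includes library quality and tissue content. For Ace they were Bmp1, Sdc3 and Lgmn (r = 0.97 each, also within groups), and for Lnpep Pum2 (0.98), Cct8 (0.97) and Ppp2ca (0.97), at 0.93, 0.93 and 0.91 within groups. Agtr1a was most like Dnajc28 (0.91), Arhgap20 (0.90) and Ankrd1 (0.89), Agt like Smpd1 (0.93), Tom1l2 (0.92) and Gtf2h3 (0.91), and Agtrap like Slc35e3 (0.91), Mocos (0.89) and Alg9 (0.88). Enpep (Xrcc2 0.89, Pappa 0.86, Maob 0.80) and Mas1 (Kif21a 0.85, Klhl21 0.84, Mtcl1 0.79) had weaker partners. Between members, r ranged from −0.65 for Agt with Lnpep to 0.48 for Ace with Agtrap, and Ace with Lnpep was at −0.64.

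The other genes of the pathway were taken from a list of 19, of which 17 were tested. edgeR called 0 of them in any comparison. DESeq2 called 0 in AngII against Ctrl and 2 in AngII+LY against AngII, where Atp6ap2 was lower and Ctsd higher, beside 5.54% of all genes called lower and 5.34% higher. The median log2 fold change of the list was −0.42 in AngII against Ctrl, beside −0.06 over all tested genes, and −0.12 with GC correction.

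Atp6ap2, which encodes the prorenin receptor and a proton pump subunit, had 8986, 10018, 8797 and 9602 normalized counts in AngII and 5252, 5040, 4203 and 2834 in AngII+LY, with no overlap. Its log2 fold change was −1.11 ± 0.25 (edgeR adjusted p = 0.0588, DESeq2 adjusted p = 0.00159), −0.62 with GC correction (DESeq2 adjusted p = 0.106) and −1.22 without the 3 libraries of high mitochondrial share (DESeq2 adjusted p = 0.0236), where 5.3% of all genes were called. DESeq2 called it whichever of the 8 mice was left out. Against Ctrl, whose values were 6476, 3902, 4995 and 8949, AngII was at 0.62 ± 0.25 (edgeR adjusted p = 0.145). Ctsd, a lysosomal protease that can cut angiotensinogen, had 19144, 20090, 16930 and 13100 normalized counts in AngII and 20257, 23709, 27984 and 31781 in AngII+LY. It changed by 0.58 ± 0.19 in that comparison (edgeR adjusted p = 0.110, DESeq2 adjusted p = 0.0176), and by 0.29 with GC correction, which DESeq2 did not call (adjusted p = 0.105), nor did it without the 3 libraries (adjusted p = 0.0924). Its call was also lost without AngII 4 (0.50, adjusted p = 0.0732), AngII+LY 3 (0.56, 0.0724) or AngII+LY 4 (0.48, 0.106).

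Renin itself came from few mice. Ren1 had 41.7 normalized counts in Ctrl 2 and 0 in the other Ctrl mice, 1.5 and 0 in LY, 10.3, 87.2, 113 and 0 in AngII, and 0, 642, 0 and 2368 in AngII+LY. All groups thus overlapped at or near 0, and the edgeR adjusted p was 0.345 in AngII+LY against Ctrl.

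The peptidases that process angiotensins by other routes were better counted. The mast cell chymase genes Cma1 and Mcpt4, which belong to both the pathway list and the mast cell markers, had log2 fold changes of −0.53 ± 0.46 and −0.90 ± 0.50 in AngII against Ctrl (edgeR adjusted p = 0.498 and 0.272), and the mast cell carboxypeptidase gene Cpa3 had 0.36 ± 0.69. Among genes for enzymes that cut angiotensin I or II, Mme (neprilysin) had 0.18 ± 0.43, Anpep (aminopeptidase N) −0.53 ± 0.39, Thop1 −0.49 ± 0.20, Nln −0.05 ± 0.26, Prep 0.17 ± 0.15, Prcp −0.01 ± 0.34, Ctsa −0.63 ± 0.25, Rnpep −0.50 ± 0.23 and Dpp3 −0.50 ± 0.27. None of these was called by either tool, and the GC-corrected values ran from −0.69 for Mcpt4 to 0.16 for Thop1. Without the 3 libraries the estimates ran from −0.78 for Cma1 to 0.52 for Mme. Ctsg and Mrgprd did not pass the filter.

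**Figure D5:**
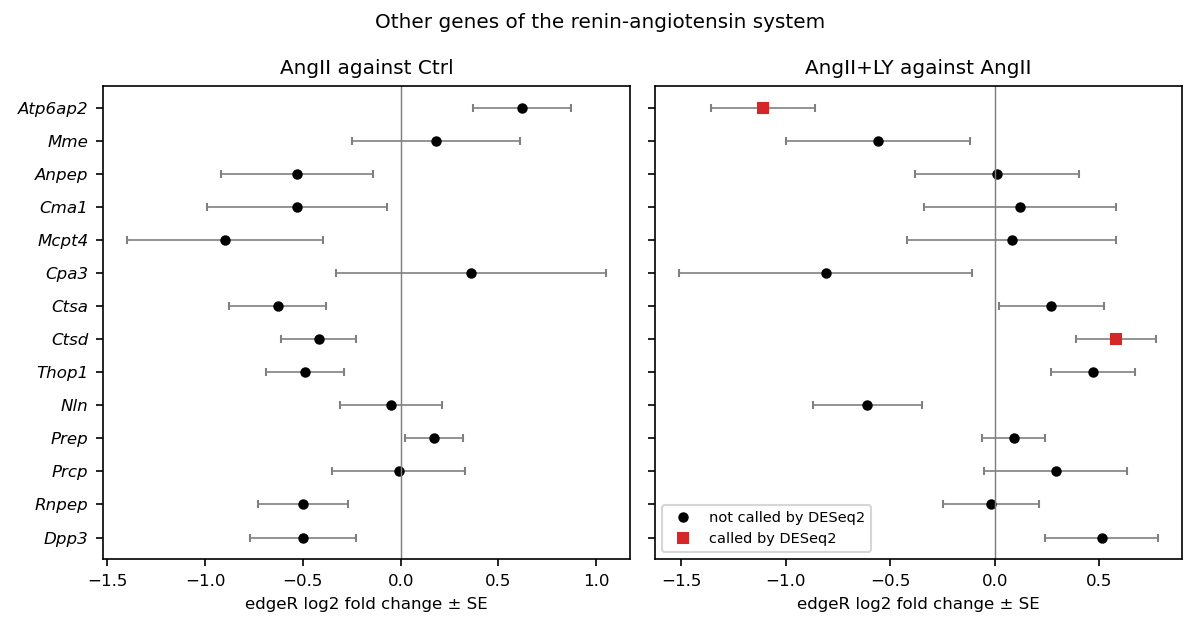
edgeR log2 fold changes ± SE (x axis) of 14 other genes of the renin-angiotensin system in AngII against Ctrl and AngII+LY against AngII, with squares for those called by DESeq2. Atp6ap2 (−1.11) and Ctsd (0.58) in AngII+LY against AngII are the 2 squares.

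The signal chain of the type 1 receptor was described with 16 genes, all tested. In AngII against Ctrl DESeq2 called 3 of them, 2 higher and 1 lower, beside 9.16% of all genes called higher and 4.75% lower. Gnaq, the Gq subunit through which the receptor acts, had 3182, 2716, 3192 and 3505 normalized counts in Ctrl and 4899, 5061, 4419 and 7875 in AngII, with no overlap. Its log2 fold change was 0.82 ± 0.22 (edgeR adjusted p = 0.0628, DESeq2 adjusted p = 0.007), and the value after GC correction, 0.83, was also called by DESeq2 (adjusted p = 0.0127), though without the 3 libraries it was 0.66 and not called (adjusted p = 0.167). The receptor kinase gene Grk5 (0.72 ± 0.24, DESeq2 adjusted p = 0.0298) was higher and the arrestin gene Arrb2 (−0.71 ± 0.21, adjusted p = 0.0209) lower. Both calls were lost by DESeq2 without AngII 3, AngII 4, Ctrl 1 or Ctrl 3, and also without Ctrl 4 for Grk5 and Ctrl 2 for Arrb2 (adjusted p = 0.0515 to 0.134 for Grk5 and 0.0568 to 0.0787 for Arrb2). DESeq2 called neither with GC correction (adjusted p = 0.0824 and 0.548) nor without the 3 libraries (0.585 and 0.399). In AngII+LY against AngII, DESeq2 called Gnaq (−0.67 ± 0.22, adjusted p = 0.0406) and the phospholipase gene Plcb1 (−1.04 ± 0.35, adjusted p = 0.0368) lower, where 5.54% of all genes were called lower. Neither passed after GC correction (DESeq2 adjusted p = 0.216 and 0.4), where 4.74% of all genes did. The Gnaq call was lost without AngII 4, AngII+LY 3 or AngII+LY 4 (adjusted p = 0.142 to 0.19) and the Plcb1 call held without AngII 1 or AngII+LY 1 and was lost without any of the other 6 mice (0.0576 to 0.207). edgeR called 0 of the 16 genes in any comparison.

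The aldosterone branch had 7 tested genes of 8. DESeq2 called 2 of them lower in AngII than in Ctrl, Sgk1 (−0.74 ± 0.18, adjusted p = 0.0069) and Per1 (−0.97 ± 0.25, adjusted p = 0.00787), both known to respond to mineralocorticoid and glucocorticoid hormones, beside 4.75% of all genes called lower. Sgk1 had 7742, 7549, 7985 and 5828 normalized counts in Ctrl and 4431, 3831, 5233 and 3971 in AngII, with no overlap. Per1 was called higher in AngII+LY than in AngII (0.79 ± 0.25, DESeq2 adjusted p = 0.0262), a call lost without AngII 2, AngII 4, AngII+LY 1, AngII+LY 3 or AngII+LY 4 (0.0531 to 0.119). Against Ctrl the AngII call of Per1 was lost without Ctrl 1 (−0.70, DESeq2 adjusted p = 0.0517). With GC correction DESeq2 called none of these (adjusted p = 0.151 for Sgk1 and 0.424 for Per1 in AngII against Ctrl), and edgeR called none of the 7.

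Of 16 genes known to respond to AngII, 15 were tested. Comparing AngII with Ctrl, DESeq2 called 1 of them higher and 3 lower, beside 9.16% and 4.75% of all genes. Spp1, the osteopontin gene, had 492, 1444, 177 and 1100 normalized counts in Ctrl and 599, 4602, 6311 and 13364 in AngII, where 1 mouse lay within the Ctrl range (2.95 ± 0.80, DESeq2 adjusted p = 0.0053). The oxidase subunit gene Cyba (−1.07 ± 0.30, adjusted p = 0.00925), the early response gene Fos (−0.95 ± 0.26, adjusted p = 0.00829) and the fibronectin gene Fn1 (−0.63 ± 0.21, adjusted p = 0.0417) were lower. Spp1 was the one of the 4 still called with GC correction (2.57, adjusted p = 0.032), and DESeq2 called none of them without the 3 libraries of high mitochondrial share, where it called 0.836% of all genes. The call was lost without AngII 4 for Spp1 (2.28, DESeq2 adjusted p = 0.0679), without Ctrl 1 for Cyba (−0.71, 0.0632), and without Ctrl 1, Ctrl 3, AngII 1, AngII 2 or AngII 4 for Fn1 (0.063 to 0.169). Cyba is abundant in phagocytes, and 6 of 10 macrophage markers were also called lower by DESeq2 (4.75% of all genes). With GC correction DESeq2 called 3 of the macrophage markers, where it called 4.25% of all genes. The marker sums were 28192 to 110775 in Ctrl and 25885 to 48865 in AngII. The part of macrophage RNA was not tested.

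Between AngII+LY and AngII, Postn, the gene of the matrix protein periostin, was called lower by DESeq2 (−1.51 ± 0.43, adjusted p = 0.00597). It had 75864, 77769, 84679 and 68172 normalized counts in AngII and 41131, 22884, 30797 and 12745 in AngII+LY, with no overlap. With GC correction it was at −0.92 and not called (DESeq2 adjusted p = 0.136), and without the 3 libraries it was at −1.78 and called (adjusted p = 0.0327). Postn is also a valve interstitial and fibroblast marker, and the 10 markers of that list summed to between 812413 and 920056 in AngII against 305018 to 539076 in AngII+LY. For the 10 cardiomyocyte markers the sum lay between 386498 and 991377 in AngII and between 986813 and 2578241 in AngII+LY. The part of tissue content in these differences was not tested. In LY against Ctrl, DESeq2 called Nr4a1, an early response gene, lower (−1.10 ± 0.24, adjusted p = 0.0142), a call that held without Ctrl 1 and was lost without any other of the 6 mice (adjusted p = 0.0648 to 1.0), where 0.11% of all genes were called. By the interaction term DESeq2 called Nr4a1 (adjusted p = 0.0161) and Fos (adjusted p = 0.0404), beside 1.06% of all genes. With GC correction DESeq2 called none of these (adjusted p = 0.113 for Nr4a1 in LY against Ctrl and 0.139 in the interaction), and Fos had no adjusted p there. Of the 14 fits that leave out a mouse, 9 called Nr4a1 and 6 called Fos. edgeR called 0 of the 15 genes in any comparison.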

How the data were processed

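The authors checked reads with FastQC 0.12.1, trimmed them, aligned them with HISAT2 to the GRCm39 genome and made gene counts with featureCounts; the annotation release, the strand setting and the handling of read pairs are not given in the sources used here. The deposited values are whole-number counts without normalization, although the table is named as normalized, and even low counts outnumber odd ones (13373 values of 2 against 10072 of 1), as counting both mates would give. Precision behind a level is set by 20990655 to 73128220 counts per library, and intervals and floors cover counting error only.

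Ensembl IDs were matched to GENCODE release M39 (618 of 56941 genes unmatched). Genes averaging 10 or more counts were tested with edgeR 4.0.16 (R 4.3.3) by its quasi-likelihood test, with TMM factors and 1 fit of the 4 groups, and with DESeq2 1.42.0. GC correction used loess offsets (span 0.3). Single genes were compared by exact 2-sided permutation tests of log2(normalized count + 1). The p-values measure the spread between mice of 1 experiment. No library pair held identical values. Groups came from the sample titles. The named genes are the 9 members, the listed genes called by edgeR or DESeq2, angiotensin-processing peptidases, and the 3 genes most like each member; 1 listed gene is not reported here. Members and lists were chosen with earlier results of these data known. Fits were tested on simulated data.

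Alternatives were DESeq2, other size factors, no filter, only the groups compared, a replicate block, GC correction, robust estimation, no mitochondrial genes and leaving out each mouse. edgeR's legacy method, planned as an alternative, is the default of this version and so the fit reported. The newer method, DESeq2 with GC correction, DESeq2 leaving out each mouse, and the fits without the 3 libraries over 20% mitochondrial counts were chosen after seeing the data.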

Additional observations from a re-analysis of the deposited data

Results flagged for a closer look

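6 of 59 groups of 4 mice held a value far from the other 3 by Dixon's ratio of its gap to the group's range. The threshold is set so that about 1 in 20 groups of normally distributed values pass it. A group with a count in 1 mouse and 0 in the other 3 passes whatever the count, as did Agtr2 and Mas1 in AngII and Ren1 in Ctrl. The number of flags therefore cannot be compared with that rate. Agt was at 840.6 normalized counts in Ctrl 2 against 72.4 to 114.8 in the other Ctrl mice. The same library held Agtr2 at 8.3 (0 to 0.7 in the others) and Ren1 at 41.7 (0 in the others). Agtr2 was at 1.2 in AngII 3 and Mas1 at 1.0 in AngII 1, each a single count with 0 in the other AngII mice. Prep, which encodes prolyl endopeptidase, was at 3227 in AngII+LY 2 against 2479 to 2566.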

How the results depend on the processing

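Low counts limit Agtr2 and Mas1 most, with at most 10 and 48 counts in a library. Mas1 had 0 counts in AngII 2, the deepest library, and in AngII 4, the smallest, and 38 in Ctrl 3. The part of depth in whether Mas1 was counted was not tested. Leaving out an LY mouse leaves 1 LY sample, which is assumed to vary like the other groups.

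edgeR called 0 members with all libraries. In AngII against Ctrl 1 member, Lnpep, was called by DESeq2, by DESeq2 with GC correction, by edgeR with no filter and by edgeR's newer method, and leaving out 1 mouse gave 0 to 1. In AngII+LY against AngII leaving out 1 mouse gave 0 to 1 calls. AngII+LY against Ctrl had 2 calls by DESeq2 with GC correction (Agtr1a and Lnpep) and 1 by DESeq2 without the 3 libraries over 20% mitochondrial counts (Ace). The interaction gave 0 to 1 calls when 1 mouse was left out, the call being Mas1 by DESeq2 without AngII+LY 2. The limit that the filter sets on Mas1 holds for that call too.

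At an unadjusted p under 0.05, AngII against Ctrl had 2 members by edgeR with all libraries, 3 by DESeq2, with GC correction by either tool and with no filter, 2 to 3 when 1 mouse was left out, and 1 without those 3 libraries by either tool. AngII+LY against AngII had 2, and 1 with only the groups compared, with GC correction, by DESeq2 with GC correction and without the 3 libraries, and leaving out 1 mouse gave 1 to 2. AngII+LY against Ctrl had 3, and 0 to 3 when 1 mouse was left out. LY against Ctrl had 1, and 0 with the newer method and without the 3 libraries, and 0 to 1 when 1 mouse was left out. The interaction had 1, and 2 by DESeq2 and without the 3 libraries, and 1 to 4 when 1 mouse was left out.

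Replicate numbers did not pair the samples. Deviations from group means correlated at −0.128 to 0.09 between libraries of the same number and at −0.105 to 0.196 between others, and 2 of 14 libraries correlated best with their own number. The replicate block gave 1 member with an unadjusted p under 0.05 in AngII+LY against AngII (0 with GC correction as well), 2 in the interaction, and 0 in LY against Ctrl with GC correction as well.

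Some directions turned. In AngII against Ctrl the Enpep estimate (0.07) was −0.08 with the block, −0.13 with GC correction by either tool, −0.28 with both, −0.05 by edgeR and −0.06 by DESeq2 without the 3 libraries, and −0.36 to 0.36 when 1 mouse was left out. Agtrap (−0.26) was 0.25 with GC correction by either tool and 0.26 with the block as well, and Ace (−0.52) was 0.07 and 0.06 without the 3 libraries by edgeR and DESeq2. In AngII+LY against AngII, Lnpep (−0.63) was 0.01 with GC correction by either tool and 0.02 with the block as well, Agtrap (−0.04) was 0.00257 with only the groups compared and −0.14 to 0.09 when 1 mouse was left out, and Agtr1a (0.19) was −0.07 to 0.36. In AngII+LY against Ctrl, Agt (−0.46) was 0.05 with the block, 0.22 with GC correction as well, and −1.08 to 1.05 when 1 mouse was left out. In LY against Ctrl, Ace (0.06) was −0.31 with the block, −0.09 with GC correction as well and −0.56 to 0.49 when 1 mouse was left out, Agtrap (−0.03) was 0.11 with GC correction by either tool, 0.08 with the block as well and −0.11 to 0.06 when 1 mouse was left out, and leaving out 1 mouse gave −0.02 to 0.30 for Agtr1a (0.14) and −2.10 to 0.16 for Agt (−1.35). The causes were not tested.

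Scaling by library totals moved the mean of Agtr1a from 330.0 to 346.1 in LY and from 449.1 to 412 in AngII. After subtracting group means, the correlations of Lnpep were 0.93 with Pum2, 0.93 with Cct8 and 0.91 with Ppp2ca. Of the single-gene estimates 446 stayed on their side of the threshold and kept their direction, 10 passed the threshold and 36 turned.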
